A study of Homo sapiens with 3 samples.

Results

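The matrix metalloproteinases MMP1, MMP2, MMP9 and MMP14, their inhibitors TIMP1, TIMP2 and TIMP3, and the urokinase pair PLAU and PLAUR were followed in UM-UC-3 cells after knockdown of WDR5. UM-UC-3 is an established human bladder cancer cell line, and WDR5 is a core subunit of the MLL/SET1 complexes that methylate histone H3 on lysine 4. The 9 genes were chosen by name, with earlier results of these data known. Every probe set whose only gene symbol was one of them was taken. They had 27 of the 49293 probe sets and made up 9 of 18155 genes with a probe set of their own. To ask which genes respond to loss of WDR5, cells were transfected for 48 h with 75 nM of control siRNA or of one of the WDR5 siRNAs, si-WDR5-2 and si-WDR5-3, and total RNA of each condition was put on 1 Affymetrix PrimeView array. All cells were of the same line, and nothing in the labels tells cultures apart. There was 1 array per condition, so the error between cultures is unknown for every difference given here, and no test was made. The siRNAs are shown because they define the 3 conditions. The labels also give a WDR5 level relative to the control, which is 0.06 for si-WDR5-2 and 0.14 for si-WDR5-3. They are given 5′ to 3′ as in the labels, with the 3′ overhang in lower case, and their target points on the WDR5 coding sequence are 999 for si-WDR5-2 and 585 for si-WDR5-3.
control siRNA: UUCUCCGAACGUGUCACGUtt
si-WDR5-2: GCUCAGAGGAUAACCUUGUtt
si-WDR5-3: CCCAGUCCAACCUUAUUGUtt

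Tumor cells cut the matrix around them with 2 connected sets of enzymes. Metalloproteinases are zinc enzymes made as inactive precursors: MMP1 cleaves fibrillar collagen, MMP2 and MMP9 are the gelatinases, and MMP14 sits in the plasma membrane and activates pro-MMP2. TIMPs bind and block their active sites. PLAU is urokinase, a serine protease that turns plasminogen into plasmin on the cell surface, where PLAUR is its receptor, and plasmin in turn can activate metalloproteinase precursors. Invasion of the bladder wall and its spread have long been linked to these enzymes.

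The targeted gene was checked first. The 2 probe sets of WDR5 lay at 1013 and 947 with control siRNA, at 204 and 218 with si-WDR5-2 and at 315 and 306 with si-WDR5-3. Both siRNA arrays were thus below the control at both probe sets, with median ratios of 0.215 and 0.317. These are higher than the levels in the labels. How the labelled levels were measured is not given here, so the difference cannot be read as a weaker knockdown. The 3 arrays had medians between 149.9 and 151, and their lowest values were between 45.48 and 46.8. Ratios to the control were taken as log2 differences for probe sets whose mean over the arrays reached 152, which is where the middle probe set of the array lay. A gene is given by the median over its probe sets past this filter, which 11501 genes had. Of 16 measured urothelial and carcinoma markers, 9 had their brightest probe set past the filter, as did 11501 of 18155 genes in all. These 9 were KRT5, KRT7, KRT8, KRT18, UPK1A, UPK1B, UPK3A, CDH2 and VIM, and the others were KRT19, KRT20, UPK2, GATA3, PPARG, FOXA1 and CDH1. For leukocyte, endothelial and fibroblast markers the numbers were 2 of 4, 2 of 3 and 1 of 4, with CD3E and CD68 past the filter and PTPRC and CD14 below it. Beside the share over all genes, these counts do not identify a cell type. Sums were taken over the brightest probe set of each marker. The leukocyte list stood at 751 with control siRNA, 1131 for si-WDR5-2 and 695 for si-WDR5-3, led by CD68. The urothelial and carcinoma list stood at 14318, 11767 and 13910 in the same order. It was led by VIM, whose 2 probe sets had geometric means of 10039, 7892 and 9174. The sum of this list thus mostly follows VIM and says little about its urothelial genes. The arrays also differed in interferon-induced genes: all 12 past the filter were higher than the control on the si-WDR5-2 array and all 12 lower than it on the si-WDR5-3 array. Their median log2 ratios were 2.14 and -0.57, and the part of these genes and of the marker lists in the results given here was not tested.

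Of the 9 genes, 4 were at most 0.667 times the control with one WDR5 siRNA or both, which is 1.5 times lower, and none was higher by that much. MMP9 and PLAU were lower with both siRNAs. Both ratios share the 1 control array, so the overlap of the siRNAs is not independent support. MMP14 was lower with si-WDR5-2 alone at this limit, and PLAUR with si-WDR5-3 alone. MMP1, MMP2, TIMP1 and TIMP2 lay within 1.5 times of the control with both, and TIMP3 did not pass the filter. In RNA of whole cultures, fewer cells that express a gene and less RNA per cell cannot be told apart. With each siRNA, 3 of the 8 genes past the filter were at most 0.667 times the control, or 37.5%. The background was 3.35% of all genes for si-WDR5-2 and 1.57% for si-WDR5-3. As the genes were chosen with earlier results of these data known, their shares beside the background are a description and not support. Over the 8 genes the log2 ratios had a median of -0.21 for si-WDR5-2 and -0.14 for si-WDR5-3. Over all genes the medians were -0.022 and -0.00092. The share of genes at least 1.5 times the control, where none of the 8 stood, was 5.00% and 2.34%. By single probe sets, 7 of 19 were at most 0.667 times the control with each siRNA, against 3.83% (si-WDR5-2) and 1.80% (si-WDR5-3) of all kept probe sets. None was at least 1.5 times the control, where 5.51% and 2.90% of all stood. Bright probe sets passed this lower limit more often than dim ones. Of the 6162 dimmest kept probe sets, 93 did so on the si-WDR5-2 array and 34 on the si-WDR5-3 array. Of the 6162 brightest on the array, from 580 upwards, 370 were at most 0.667 times the control on the si-WDR5-2 array and 173 on the si-WDR5-3 array, and 10 of the 19 kept probe sets of these genes were this bright. MMP9 and PLAU also stand in the study's own table of lowered genes, which was drawn from these arrays, so that table is not independent evidence of their direction. The study also measured array genes by RT-qPCR in UM-UC-3 and T24 cells. Its RT-qPCR primers include a pair for MMP9 and none for PLAU, and those measurements were not used here.

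**Figure D1:**
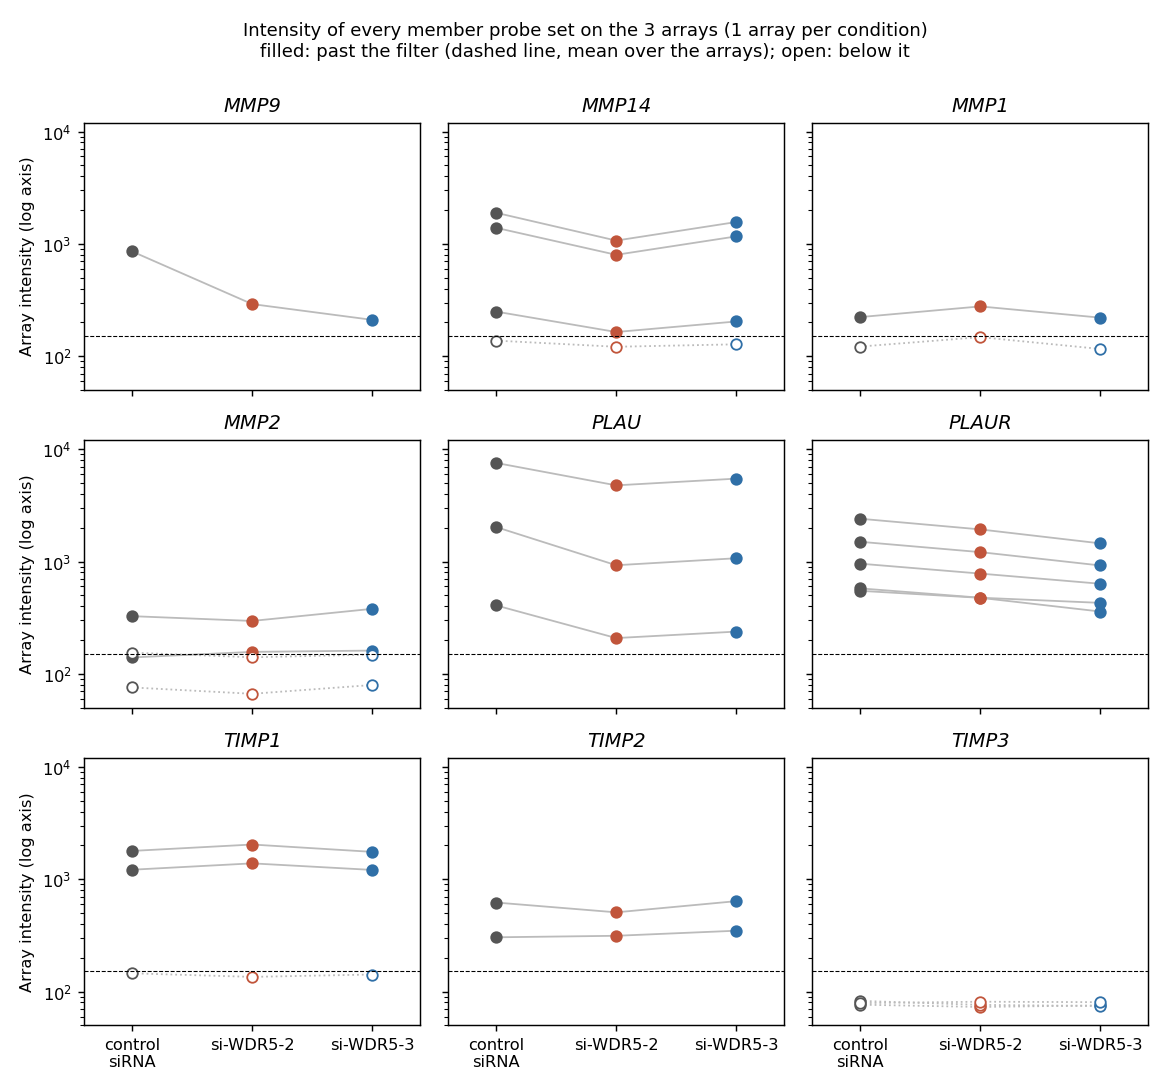
Array intensity (log axis) of all 27 probe sets of the 9 genes on the 3 arrays, 1 per condition, with lines joining the values of 1 probe set. Filled points passed the filter on the mean over the arrays (dashed line at 152) and open points did not, and the control is the highest array at all kept probe sets of MMP9, MMP14, PLAU and PLAUR.

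MMP9, the gelatinase that degrades basement membrane collagen, had the lowest ratio of the 8 genes with either siRNA. It rests on 1 probe set, 11719657_a_at, whose intensity was 855 on the control array, 291 on the si-WDR5-2 array and 211 on the si-WDR5-3 array. The control array was the highest and the si-WDR5-3 array the lowest. The ratios were 0.340 and 0.246, or -1.56 and -2.02 on the log2 scale. Counted from the lowest, WDR5 itself had rank 1 for si-WDR5-2 and rank 7 for si-WDR5-3, and MMP9 ranks 9 and 3. MMP9 thus had a lower ratio than the targeted gene with one of the 2 siRNAs. Between the siRNA arrays the intensity of MMP9 with si-WDR5-2 was 1.38 times that with si-WDR5-3, which is under the limit. MMP9 was the only one of the 8 genes at most 0.667 times the control with each siRNA and at most 0.5 times with at least one, against a background of 0.209% of all genes. No gene of the 8 was higher by this rule or at 1.5 times with each siRNA, where 0.522% and 1.19% of all genes were. The ratios with both siRNAs share the 1 control array. With a single probe set no range over probes can be given for MMP9.

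The gene whose pair of ratios lay nearest to that of MMP9 was OIP5, a centromere protein, at 0.329 and 0.261 times the control. Its distance from MMP9 was 0.10 over the 2 log2 ratios. The next were RPS14, a ribosomal protein, at 0.427 and 0.351 times and RPIA, an enzyme of the pentose phosphate pathway, at 0.450 and 0.357 times, at distances of 0.61 and 0.67. Few genes therefore lay in the region of MMP9 and OIP5. These distances use only 2 ratios that share the control array.

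PLAU was lower than the control at each of its 3 probe sets. Probe set 11717886_a_at had 7549 on the control array, 4768 for si-WDR5-2 and 5472 for si-WDR5-3. Probe set 11717154_a_at had 2027, 927 and 1070.3, and 11754119_a_at had 407, 208 and 238, in the same order of arrays. All 3 put the control highest, si-WDR5-3 next and si-WDR5-2 lowest. The median ratio was 0.512 for si-WDR5-2 and 0.585 for si-WDR5-3, and the 3 ratios spanned 0.458 to 0.632 in the former and 0.528 to 0.725 in the latter. The brightest probe set of PLAU had the ratios nearest to 1, and with si-WDR5-3 it did not reach the limit of 1.5 times. The log2 ratios had an SD over probe sets of 0.24 (si-WDR5-2) and 0.23 (si-WDR5-3), compared with medians of 0.078 and 0.071 over the 5823 genes with several kept probe sets. In contrast, the ratio between both siRNA arrays was nearly the same at all 3 probe sets, from 0.866 to 0.876. Thus the probe sets of PLAU differed in the size of the change from the control and hardly in the difference between the siRNAs. At the limit of 1.5 times with each siRNA, PLAU and MMP9 made 2 of 8 genes, against 0.365% of all genes. Both siRNAs are set against the same control array, so passing with each is not replication. Under the stricter rule with 0.5 times for at least one siRNA, 1 of the 3 PLAU probe sets passed and the median did not, while 0.235% of all kept probe sets passed. The genes nearest to PLAU were CD82, a tetraspanin, at 0.497 and 0.573 times, RBM14, an RNA-binding protein, at 0.558 and 0.591 times and RPL13, a ribosomal protein, at 0.558 and 0.607 times.

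PLAUR, the receptor of urokinase, lay below the control at all 5 of its probe sets with both siRNAs, and further below with si-WDR5-3. The brightest, 11738053_x_at, had 2405 on the control array, 1933 for si-WDR5-2 and 1452 for si-WDR5-3. Probe set 11743063_x_at had 1499.8, 1214 and 923, and 11743062_a_at had 958, 782 and 635. The other 2 repeated this order from 549, 476 and 359 and from 577, 477 and 429. Every one of the 5 put the control highest and si-WDR5-3 lowest, which is the order of MMP9 and the opposite of PLAU for the 2 siRNAs. The median ratio was 0.816 with si-WDR5-2, with a range of 0.804 to 0.866, and 0.654 with si-WDR5-3, with a range of 0.604 to 0.743. The intensity with si-WDR5-2 was 1.11 to 1.33 times that with si-WDR5-3. With an offset of 84.8 added to all intensities before log2, the ratio with si-WDR5-3 was 0.690, short of the limit. Neither the step between the siRNAs here nor the other differences between the siRNAs was tested. The letter x in a name marks a probe set with probes that may bind other transcripts, and 3 of the 5 PLAUR probe sets are without it.

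MMP14, the membrane-bound activator of pro-MMP2, was lower mainly with si-WDR5-2. Probe set 11725988_at had 1890.1 on the control array, 1069.7 for si-WDR5-2 and 1564 for si-WDR5-3. Probe sets 11725989_x_at and 11725987_a_at had 1389, 799 and 1165 and 249, 164 and 204. In each the si-WDR5-2 array was the lowest and the si-WDR5-3 array lay between it and the control. The median ratio was 0.575 with si-WDR5-2, ranging from 0.566 to 0.658, and 0.827 with si-WDR5-3, ranging from 0.817 to 0.839. The intensity with si-WDR5-2 was 0.684 to 0.806 times that with si-WDR5-3. Another probe set below the filter, 11747717_a_at, had 138, 121 and 128 with the same order of arrays and ratios of 0.882 and 0.927. MMP14 and PLAUR therefore lay on opposite sides in the direct comparison of the siRNAs, at median ratios of 0.686 and 1.31. No gene of the 8 passed 1.5 times in that comparison, where 3.53% of all genes were higher and 3.08% lower with si-WDR5-2.

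**Figure D2:**
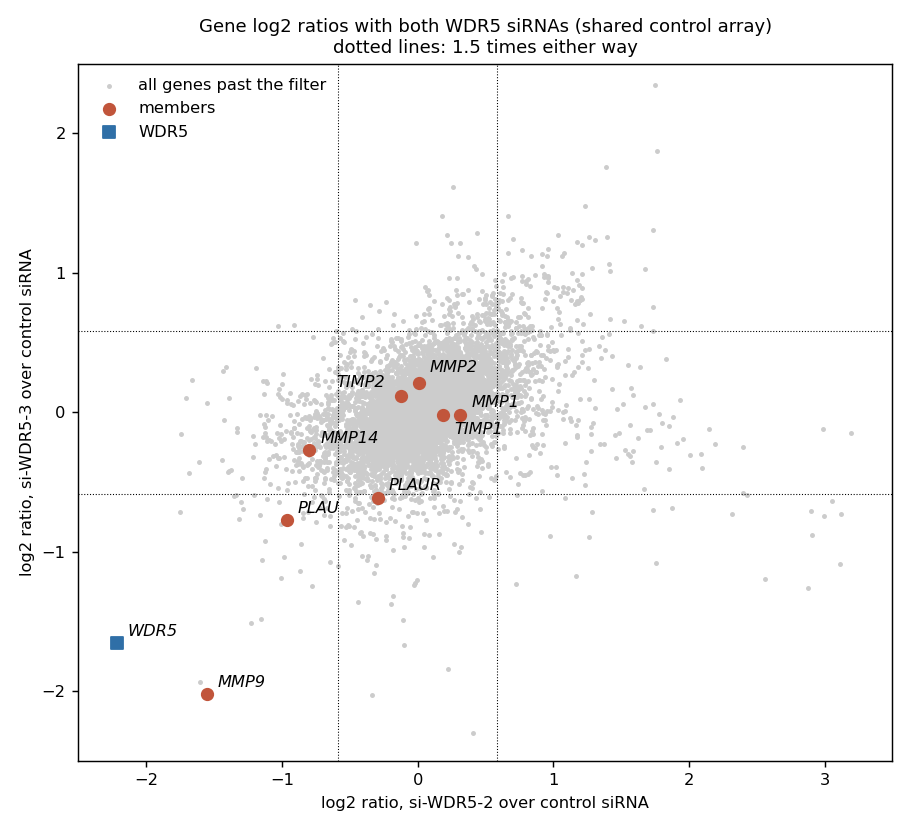
Log2 ratio to control siRNA of each gene past the filter, si-WDR5-2 on the horizontal and si-WDR5-3 on the vertical axis, with the 8 genes of the metalloproteinase and urokinase group in red and WDR5 in blue. Both axes share 1 control array, dotted lines mark 1.5 times either way, and MMP9 lies at -1.56 and -2.02 and WDR5 at -2.22 and -1.66.

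The collagenase MMP1 differed little from the control. Its kept probe set 11755928_s_at had 223 on the control array, 277 for si-WDR5-2 and 220.4 for si-WDR5-3. The ratios were thus 1.24 and 0.988. The dimmer probe set 11741897_a_at, below the filter, had 122, 148 and 116, with ratios of 1.21 and 0.952. Both placed si-WDR5-2 highest, by less than 1.5 times. The letter s marks a probe set that can match transcripts of several genes.

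For MMP2, the gelatinase activated by MMP14, the kept probe sets did not share a direction with si-WDR5-2. Probe set 11743251_s_at had 327 on the control array, 296 for si-WDR5-2 and 379 for si-WDR5-3, and 11743250_a_at had 140.1, 157 and 161. Their ratios were 0.907 and 1.12 with si-WDR5-2 and 1.16 and 1.15 with si-WDR5-3, in that order. The other 2 probe sets lay below the filter, where si-WDR5-2 gave ratios of 0.878 and 0.909 and si-WDR5-3 gave 1.05 and 0.960. All 4 probe sets thus lay within 1.5 times of the control.

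The inhibitors stayed near the control, TIMP1 among them. Probe set 11715360_x_at had 1787 on the control array, 2038 for si-WDR5-2 and 1754 for si-WDR5-3, and 11715359_a_at had 1216, 1385 and 1211. Both gave 1.14 times the control with si-WDR5-2, and 0.981 and 0.996 times with si-WDR5-3. The dimmest probe set of TIMP1, at 145 in the control and below the filter, had ratios of 0.929 and 0.976. TIMP2 had 620.4, 508 and 638 at 11722786_s_at and 304, 314 and 348 at 11748126_a_at, in the order control siRNA, si-WDR5-2 and si-WDR5-3. The si-WDR5-3 array was the highest at both, and the ratios were 0.818 and 1.03 on the si-WDR5-2 array and 1.03 and 1.14 on the si-WDR5-3 array. TIMP3, which stays bound to the matrix after secretion, had 3 probe sets between 73.0 and 82.7 on all arrays, close to the lowest values on them. At that brightness a ratio says little in either direction. In all, the inhibitors past the filter were at 0.919 to 1.14 times the control by their medians, while the proteases and the receptor spanned 0.246 to 1.24 times.

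Next, the sequence before the transcription start was examined for the genes with a RefSeq promoter window, which were MMP14, PLAU, PLAUR, TIMP1 and TIMP3. The window is 250 bases on the gene's strand. The 3 lowered genes with a window are shown with TIMP1, which was not lowered, and PLAU is shown at the second of its 2 starts. MMP9, the lowered gene without a window, could not be examined, nor could MMP1, MMP2 and TIMP2. The windows, on GRCh38.p14, are chr14:22836335-22836584 (plus strand) for MMP14, chr10:73910882-73911131 (plus strand) for PLAU, chr19:43670170-43670419 (minus strand) for PLAUR and chrX:47582186-47582435 (plus strand) for TIMP1. Capitals mark every match, on either strand, to 4 short motifs, and no matches overlap. The letters searched for AP-1 were TGANTCA. For PEA3 and other ETS factors they were AGGAAG. The SP1 motif was searched as GGGCGG. The TATA box was searched as TATAAA.
MMP14: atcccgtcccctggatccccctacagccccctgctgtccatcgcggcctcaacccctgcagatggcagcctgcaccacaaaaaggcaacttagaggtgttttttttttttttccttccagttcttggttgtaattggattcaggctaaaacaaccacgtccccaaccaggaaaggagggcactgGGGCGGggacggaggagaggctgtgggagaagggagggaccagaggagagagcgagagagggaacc
PLAU: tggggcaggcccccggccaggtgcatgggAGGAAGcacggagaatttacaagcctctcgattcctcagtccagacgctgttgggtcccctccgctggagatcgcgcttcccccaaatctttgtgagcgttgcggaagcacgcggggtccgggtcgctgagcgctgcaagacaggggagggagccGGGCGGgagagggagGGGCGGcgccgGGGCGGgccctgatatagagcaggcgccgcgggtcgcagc
PLAUR: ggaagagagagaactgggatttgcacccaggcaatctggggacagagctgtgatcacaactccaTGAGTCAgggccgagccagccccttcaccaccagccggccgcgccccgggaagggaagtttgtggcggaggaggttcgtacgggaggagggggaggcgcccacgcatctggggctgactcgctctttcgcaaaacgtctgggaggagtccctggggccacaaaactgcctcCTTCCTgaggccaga
TIMP1: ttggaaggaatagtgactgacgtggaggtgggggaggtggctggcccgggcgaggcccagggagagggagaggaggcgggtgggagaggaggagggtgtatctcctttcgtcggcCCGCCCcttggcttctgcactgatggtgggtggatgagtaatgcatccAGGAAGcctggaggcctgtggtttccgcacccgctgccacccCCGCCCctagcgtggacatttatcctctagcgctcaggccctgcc

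The PLAUR window held the only AP-1 match of the 6 windows examined, TGAGTCA from -186 to -180 before the start. It also held a PEA3/ETS match from -15 to -10 on the opposite strand. The PLAU window held 3 SP1 matches, at -66, -51 and -40, and 1 PEA3/ETS match at -221, and the window of its first start held no match to any of the 4 motifs. The MMP14 window had 1 SP1 match at -66. No motif was thus found in all 3 of these windows. The windows of TIMP1 and TIMP3 held 2 and 5 SP1 matches, and that of TIMP1 also held 1 PEA3/ETS match, at -87. Over 35116 windows of this length in the same table, 6.57% held the AP-1 letters, 28.7% the PEA3/ETS letters, 42.6% the SP1 letters and 10.7% the TATA letters. SP1 and PEA3/ETS letters are therefore common in such windows, and a match of letters is not evidence of binding.

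**Figure D3:**
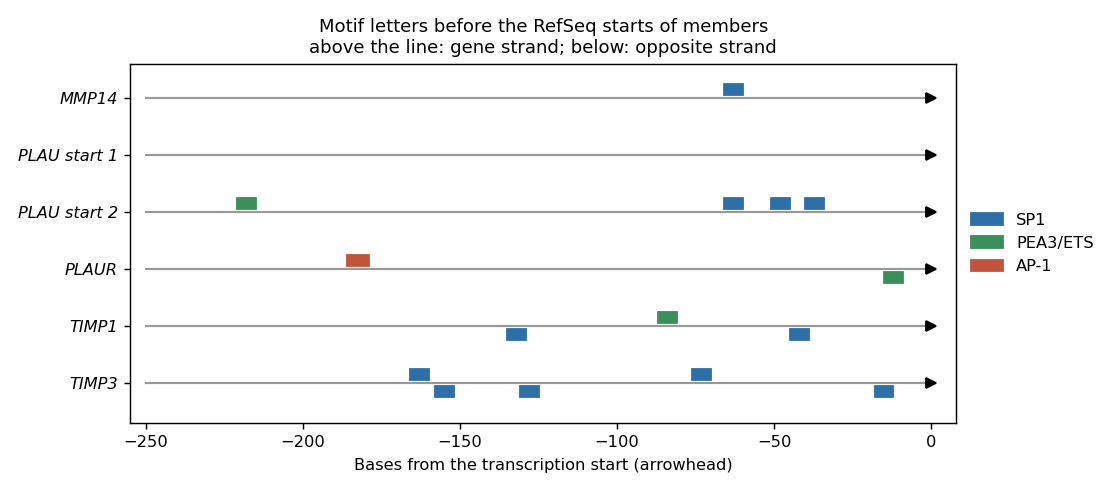
Positions of motif letters in the 250 bases before the RefSeq starts of MMP14, PLAU (2 starts), PLAUR, TIMP1 and TIMP3, in bases from the start, with boxes above a line for the gene's strand and below it for the opposite strand. The AP-1 letters occur once, in PLAUR, and the TATA letters in none of the 6 windows. SP1 letters occur in MMP14, PLAU, TIMP1 and TIMP3, and PEA3/ETS letters in PLAU, PLAUR and TIMP1.

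To see how far the change extended, wider families of the same system were counted. By the median over probe sets, none of 4 other secreted metalloproteinases past the filter, of 13 on the list, reached 1.5 times in either direction with either siRNA. With si-WDR5-2 first and si-WDR5-3 second, MMP19 was at 0.891 and 0.915 times the control and MMP28 at 0.923 and 0.985 times. The 3 kept probe sets of MMP19 spanned 0.622 to 0.965 times (si-WDR5-2) and 0.877 to 1.06 times (si-WDR5-3). Its brightest, with 316 on the control array and 197 and 289 on the others, was past the limit with si-WDR5-2. Among 5 other membrane-type metalloproteinases, again none reached the limit. MMP16 had 2 kept probe sets, with ratios of 1.36 and 1.44 on the si-WDR5-2 array and 1.28 and 1.41 on the si-WDR5-3 array, and MMP24 was at 0.936 and 0.967 times. By gene medians, MMP9 and MMP14 were thus the only 2 of the metalloproteinases past the filter that reached the limit, MMP14 with si-WDR5-2 alone, and by its brightest probe set MMP19 reached it too. The metalloproteinases of these wider lists were dim. On the control array their geometric means ran from 157 (MMP17) to 321 (MMP28), against 855 for MMP9 and 868 for MMP14. Dimmer probe sets passed the lower limit less often. These ratios therefore do not show that the change was confined to MMP9 and MMP14.

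The other genes of plasminogen activation stayed within 1.5 times as well. Of 9 past the filter, none reached the limit, and their ratios lay within 0.692 to 1.34 for si-WDR5-2 and 0.932 to 1.14 for si-WDR5-3. F12, the coagulation factor XII that can activate plasminogen, was at 0.692 and 0.932 times and PLGRKT, a plasminogen receptor, at 1.34 and 0.960 times. Among 6 regulators of metalloproteinase activity, none reached the limit. The integrin gene ITGAV was at 0.797 and 1.22 times and FURIN, the convertase that activates pro-MMP14, at 0.814 and 1.03 times. In 9 ADAM and ADAMTS proteases, ADAM19 was the one past the limit, at 1.30 times (si-WDR5-2) and 1.84 times (si-WDR5-3) over 1 probe set. ADAM15 was at 1.19 and 1.30 times, and its 6 probe sets spanned 0.939 to 1.53 times (si-WDR5-2) and 1.03 to 1.82 times (si-WDR5-3).

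Genes that act upstream of these proteases were counted in the same way. AP-1 and ETS transcription factors drive many metalloproteinase and urokinase genes. Of 13 past the filter, 1 reached 1.5 times, FOSL2, an AP-1 subunit, at 1.66 times (si-WDR5-2) and 1.08 times (si-WDR5-3). Its 4 kept probe sets ranged from 1.22 to 2.45 times with si-WDR5-2. ETS1 was at 0.850 and 0.668 times, just inside the limit, with a range of 0.574 to 0.887 over 3 probe sets with si-WDR5-3. Of 5 growth factors and cytokines that induce these proteases, none reached the limit by its median. HBEGF, a ligand of the EGF receptor, was at 0.853 and 0.698 times, and its 2 probe sets spanned 0.629 to 0.776 times with si-WDR5-3. VEGFA was at 1.24 and 1.14 times, and its 9 kept probe sets spanned 1.01 to 1.61 times (si-WDR5-2) and 0.985 to 1.56 times (si-WDR5-3). The medians of these 7 families stayed between -0.16 and 0.069 on the log2 scale. Among the interferon-induced genes IFIT2 was at 8.72 and 0.604 times and IFITM1 at 8.66 and 0.469 times.

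**Figure D4:**
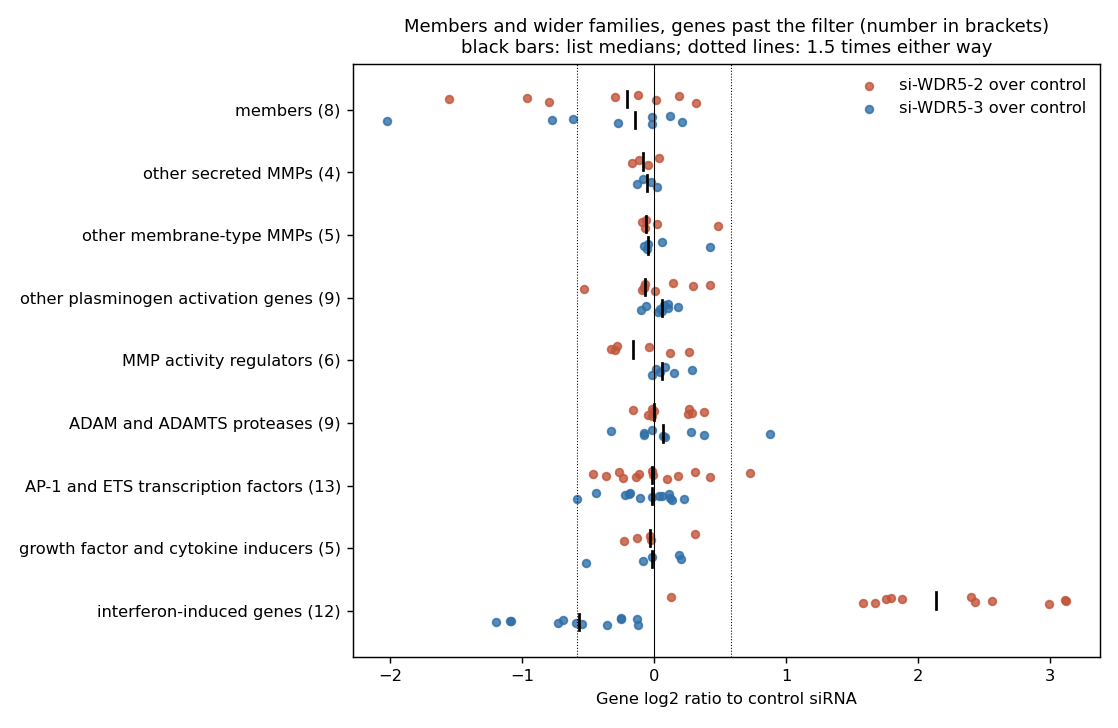
Gene log2 ratio to control siRNA with si-WDR5-2 (red) and si-WDR5-3 (blue) for the 8 genes past the filter (members) and the wider families, with the number of genes in brackets and list medians as black bars. MMP9, PLAU, MMP14 and PLAUR lie left of the dotted line at 1.5 times on 1 array or both, while the gene medians of the other metalloproteinases stay inside the lines. These other metalloproteinases were dimmer than MMP9 and MMP14 on the control array.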

How the data were processed

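Total RNA of UM-UC-3 cells was measured on 3 PrimeView arrays, 1 per condition, and each column was matched to its sample by the labels. The arrays were run by a service company for the authors, and the deposited values are linear intensities, made with GCOS 1.4 by the submitters' processing notes and methods. How background, summary over probes and normalization were handled is not given in the sources used here. As medians were close, no further scaling was applied. Dim probe sets can have ratios drawn towards 1, and no detection calls were used.

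No offset was added before log2. The 24647 probe sets in the upper 50% by mean log2 value were kept. Of all probe sets, 45064 have 1 gene symbol in the platform annotation, 1756 several and 2473 none, and only the first kind names a gene. For each gene the median of its kept probe sets' log2 ratios was taken, whose range or SD measures the probes, not the cells. The number of arrays limits the precision, and no test was made. The fold limits were 1.5 and 2 times, and the form of the rule for both siRNAs was read from the study's table. The genes, lists, limits and alternatives were chosen with earlier results of these data known. Named genes were all 9 genes, WDR5, and the 3 nearest to MMP9 and to PLAU by Euclidean distance over the 2 log2 ratios. From each list, genes past 1.5 times with both siRNAs were named. Where a list had none, the 2 with the largest absolute log2 ratio on either array were named. The counting rule was tried on simulated data whose planted changes were all larger than the fold limits. It therefore says nothing about changes near these limits. Promoters are from RefSeq (GRCh38.p14), where 5 of the 9 genes had a window. Python 3.11.15 with numpy 2.4.6, pandas 2.3.3 and matplotlib 3.10.9 was used.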

Additional observations from a re-analysis of the deposited data

How the results depend on the processing

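With a fold limit of 2 the genes at most 0.5 times the control numbered 1 with si-WDR5-2 and 1 with si-WDR5-3, in place of 3 and 3. Counting a gene where any kept probe set met the rule for both siRNAs, an alternative chosen after seeing the data, gave 2 lower genes in place of 1. The median log2 ratio over the genes with si-WDR5-2 was -0.29 with the filter at the 75th percentile, which left 7 genes, and -0.30 with the brightest probe set. With si-WDR5-3 it was -0.043 without the filter, which added TIMP3, and -0.26 with the filter at the 75th percentile. PLAU with si-WDR5-3 was at 0.725 times by its brightest probe set and PLAUR at 0.690 times with an offset of 84.8 before log2, so that neither reached 0.667 there. Under median centring, quantile normalization and the filters tried, the counts with each siRNA stayed at 3 lower and 0 higher. Of 110 single-gene values under these alternatives, 96 moved by no more than the SD over probe sets. For MMP1 and MMP9, with 1 kept probe set each, the median SD over genes with several kept probe sets was used instead. Part of these values could not move. MMP9, with 1 probe set, kept its value under every filter and with the brightest probe set. PLAU, PLAUR and TIMP2, with all probe sets kept, could not change without the filter or with it at the 25th percentile. MMP2 with si-WDR5-2, never past the limit, changed sign in 5 of 7 alternatives. These changes all lay within its SD of 0.22 over 2 kept probe sets, so they count among the 96. MMP9 ranged from 0.334 to 0.400 times with si-WDR5-2 and from 0.243 to 0.314 times with si-WDR5-3. No paired analysis was possible because each condition has 1 array. The signal near the floor limits what TIMP3 can show.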
